A study of Rattus norvegicus with 12 samples.

Results

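The genes described here are 10 rat genes of the unfolded protein response of the endoplasmic reticulum (ER): Xbp1, Creb3l1, Creb3l4, Hspa5, Dnajb9, Herpud1, Pdia4, Ddit3, Atf4 and Sdf2l1. They were found by their names in the array files, which gave 11 probes for these 10 of 26612 gene names on the array, with a pair of probes for Sdf2l1. Expression was measured on 1-colour arrays in cells dispersed with collagenase from the cervix of 12 perfused adult female Sprague Dawley rats, with a single rat to an array and 4 groups of 3. The groups were whole cervix of nonpregnant rats in proestrus (NP, rats 8, 9 and 10), whole cervix of pregnant rats at day 21 after breeding, about a day before birth (D21, rats 5, 6 and 7), macrophage-depleted (Mφ-depleted) cervix of other NP rats (rats 5, 6 and 7) and Mφ-depleted cervix of other D21 rats (rats 1, 2 and 4). Depletion meant incubation with ED1, an antibody to the Mφ protein CD68, and removal of the bound cells with magnetic beads. The whole preparation was frozen without the antibody and bead steps, so that loss of Mφs and the handling that removed them cannot be told apart, and no rat gave both preparations. The comparison of D21 with NP rats asks whether expression of these genes rises as the cervix nears birth.

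Proteins made for export or for membranes are folded in the ER, and a load of unfolded protein is read there by the sensors IRE1, PERK and ATF6. IRE1 splices the mRNA of Xbp1 into the form that encodes the active transcription factor, PERK slows translation while Atf4 mRNA is still translated, and ATF4 in turn induces Ddit3. ATF6 and its relatives Creb3l1 and Creb3l4 are transcription factors held in the ER membrane and released by cleavage. The targets include chaperones such as Hspa5 (BiP) and factors that return misfolded protein to the cytosol for degradation. In the cervix, cells with a high secretory output include the mucous epithelium, which enlarges in pregnancy, and the fibroblasts that make collagen.

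Sequences from before the gene starts are shown for Xbp1, Hspa5 and Herpud1. Only these 3 of the 10 genes held an ER stress element there with every fixed letter matched. Elements with a mismatched letter were not sought, so that the other genes may hold such forms. The 250 bases before each gene start were read from the RefSeq promoter table (build GRCr8), which held all 10 genes, and each sequence is written 5′ to 3′ on the strand of the gene with the elements in capitals. The Xbp1 sequence is chr14:84604373-84604622 (+ strand), that of Hspa5 is chr3:38452766-38453015 (+ strand) and that of Herpud1 is chr19:10614708-10614957 (− strand).
Xbp1: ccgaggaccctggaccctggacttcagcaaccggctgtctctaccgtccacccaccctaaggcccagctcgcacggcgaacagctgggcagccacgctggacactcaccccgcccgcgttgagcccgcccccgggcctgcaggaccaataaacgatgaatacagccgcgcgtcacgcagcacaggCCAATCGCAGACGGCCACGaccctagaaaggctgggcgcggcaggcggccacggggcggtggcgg
Hspa5: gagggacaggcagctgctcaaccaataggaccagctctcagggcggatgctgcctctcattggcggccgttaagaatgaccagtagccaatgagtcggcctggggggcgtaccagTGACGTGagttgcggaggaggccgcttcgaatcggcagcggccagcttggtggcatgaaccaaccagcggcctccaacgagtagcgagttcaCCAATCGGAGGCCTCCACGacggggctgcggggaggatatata
Herpud1: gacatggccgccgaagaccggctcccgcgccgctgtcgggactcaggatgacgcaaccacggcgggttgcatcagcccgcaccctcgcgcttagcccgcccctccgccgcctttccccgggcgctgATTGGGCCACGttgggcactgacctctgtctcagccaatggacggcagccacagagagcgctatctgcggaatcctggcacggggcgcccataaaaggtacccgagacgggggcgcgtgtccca
The capitals near the end of the Xbp1 and Hspa5 sequences mark the ER stress element ERSE, CCAAT followed after 9 bases by CCACG, which is known to bind NF-Y at its first part and ATF6 or XBP1 at its last. It lay 65 to 47 bases before the start of Xbp1 and 43 to 25 bases before the start of Hspa5, and the same letters were found in 0.0657% of the 33469 promoters of the table, with both strands searched. The other capitals in Hspa5 mark the core TGACGTG of the unfolded protein response element, 135 to 129 bases before the start, found in 1.54% of all promoters. The capitals in Herpud1 mark the related element ERSE-II, ATTGG followed after 1 base by CCACG, which lay 124 to 114 bases before the start and was found in 0.0418% of all promoters. A CCAAT box on either strand, which overlaps ERSE and ERSE-II by construction, was found in 7 of the 10 genes and in 34% of all promoters. The cAMP response element TGACGTCA was found in none of the 10 and in 1.59% of all promoters, and TGATG followed after 1 base by AA, a core of the sites that ATF4 shares with C/EBP proteins, was found in Herpud1 and in 3.4% of all promoters. These matches describe letters only.

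A level is given below as the log2 of the intensity of a probe relative to the 75th percentile of its array, so that 0 is the 75th percentile and a step of 1 is a doubling. All 10 genes were rated well above background by the scanner software on all 12 arrays, and none was saturated. A gene was called where limma, fitted to all genes over the 12 arrays, gave a Benjamini-Hochberg adjusted p under 0.05. In these dispersed tissues, fewer cells of a type and less RNA per cell cannot be told apart. The adjusted p measures differences against the spread between single rats.

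The 12 arrays filled 4 slides, which were scanned over 3 days, and the share of probes well above background ranged from 44.9% to 61.8%. All 6 whole arrays were scanned on the same day. Of the 6 depleted arrays, NP rat 7 and D21 rat 4 lay on a slide with whole arrays of NP rats, and the other 4 were scanned on other days. The differences that involve the depleted groups were therefore also taken without these 2 arrays, which left 2 rats in each depleted group, an alternative chosen after the data were seen. Without them the whole and depleted arrays shared no slide and no scan day. Preparation could not then be told apart from slide and day. Over 12 Mφ markers the mean log2 level was 1.38 ± 0.23 in NP whole and 1.83 ± 0.08 in D21 whole cervix (SD, n = 3), against -3.14 ± 0.16 and -2.46 ± 0.57 after depletion, and whole cervix was called higher than depleted cervix for 9 of 12 markers in D21 rats and 9 of 11 in NP rats. Of the 12 markers 5 were well above background on all arrays, so that part of the list was tested through the whole groups where it was high. Cd68, the gene of the protein that ED1 binds, stood well above background on every array and was not called between whole and depleted cervix (-0.15, adjusted p = 0.882, in D21 and 0.54, adjusted p = 0.53, in NP rats), nor was Cd14 (0.26, adjusted p = 0.733, and -0.23, adjusted p = 0.751). Both are named after their values were seen.

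In whole cervix, 1 of the 10 genes was called between D21 and NP rats: Creb3l4 had a D21 level above that of NP rats by 2.86 in log2 (SE 0.64, 7.25-fold, adjusted p = 0.0287), and none was lower. Over all 14063 genes tested, 3.93% were called higher and 1.93% lower. Without adjustment, 3 of the 10 genes and 22.7% of all genes had a p under 0.05. The median difference of the 10 genes was -0.03 and that of all genes -0.08, with 5 of the 10 above 0. In 4 of the 10 genes the D21 and NP whole rats did not overlap, with D21 above in Creb3l4, Herpud1 and Atf4 and below in Pdia4, and such groups were found in 44.3% of all genes. The plot of levels by rat shows each of the 10 genes in the 4 groups.

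**Figure D1:**
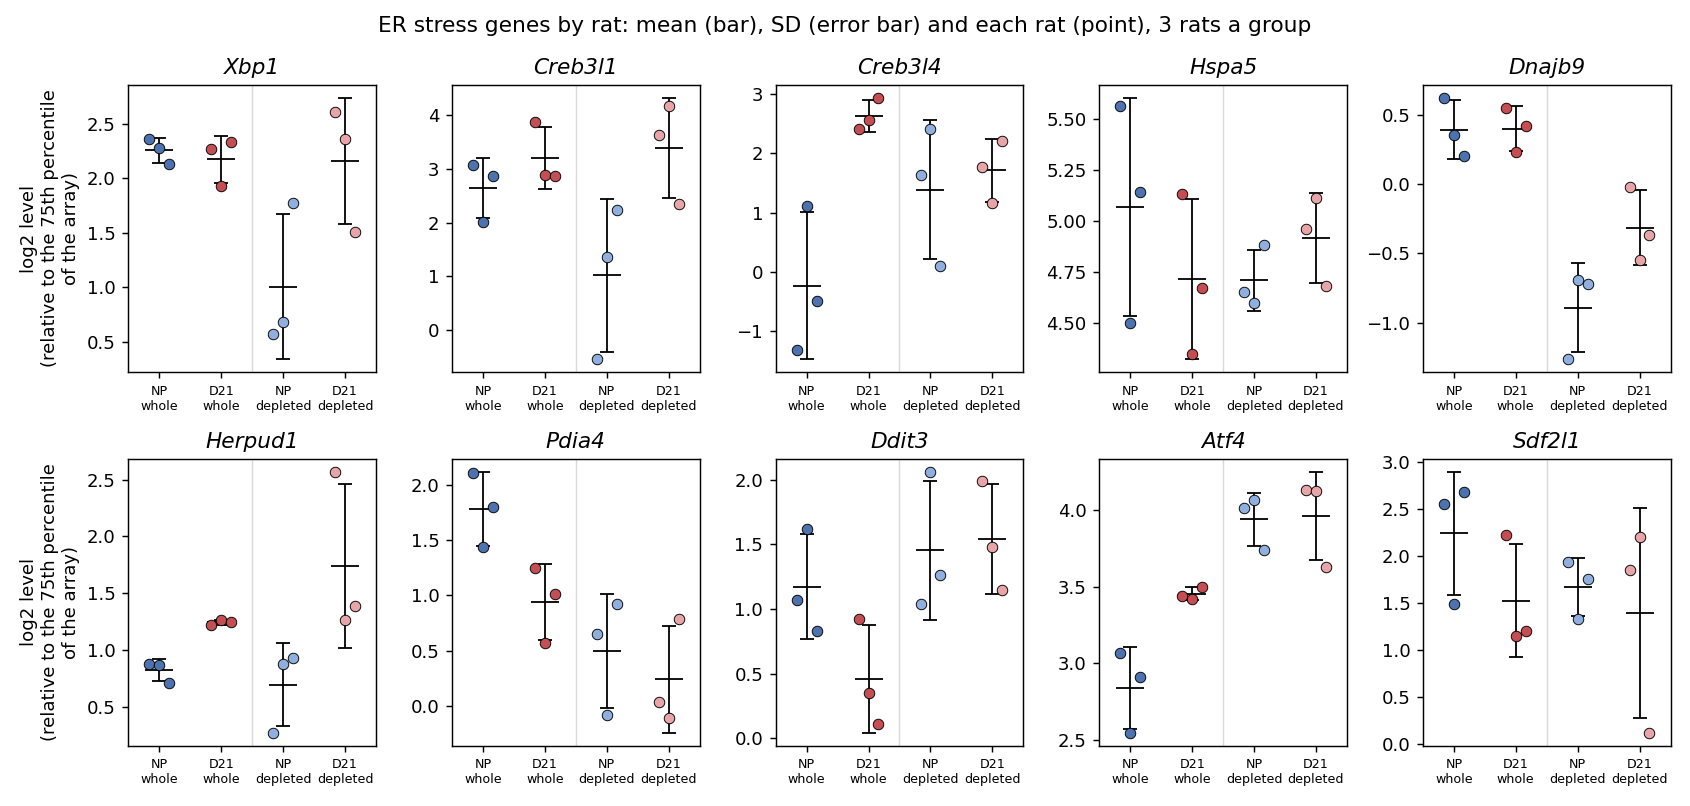
Levels of the 10 genes in each rat (log2 over the array's 75th percentile, vertical axis, which differs between panels) in NP whole, D21 whole, NP depleted and D21 depleted cervix, with points for rats and bars for the mean and SD of 3 rats. Creb3l4 in D21 whole cervix lay above NP whole cervix in every rat, and Dnajb9 in NP depleted cervix lay below every whole rat.

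Among the transcription factors, Creb3l4 is a member of the CREB3 family found in secretory epithelia. Its level was -1.31, 1.12 and -0.49 in NP whole rats 8, 9 and 10 and 2.40, 2.56 and 2.93 in D21 whole rats 5, 6 and 7. NP rat 9 lay between the other NP rats and the D21 rats, and the groups were apart by more than 1 on the log2 scale. In depleted cervix the level was 1.64, 2.41 and 0.11 in NP rats 5, 6 and 7 and 1.76, 1.16 and 2.21 in D21 rats 1, 2 and 4. These groups overlapped, and the difference of 0.32 (SE 0.64, 95% interval -1.08 to 1.73) did not pass the test (adjusted p = 0.801). The difference between the D21 effects in whole and depleted cervix, tested as an interaction, was 2.53 (SE 0.91, adjusted p = 0.168) with all arrays. It was 3.42 without the depleted arrays of the shared slide (adjusted p = 0.0288) and 3.12 with array weights, which let noisy arrays count less (adjusted p = 0.0109), both past the threshold. Over the mean of both preparations Creb3l4 differed by 1.59 (SE 0.46, adjusted p = 0.055). The call in whole cervix was lost with 1 rat left out in 5 of 12 cases (NP rats 8 and 10 and D21 rats 5, 6 and 7), when the adjusted p was at most 0.131, and over 29 alternatives the difference ranged from 2.32 to 3.53 and the adjusted p from 2.7e-04 to 0.216. Within the slide that held 3 D21 and 1 NP whole arrays the difference was 3.12.

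In whole cervix, markers of mucous epithelium had the direction of Creb3l4. Fcgbp, a mucus protein, was higher in D21 whole cervix by 6.0 (SE 0.64, adjusted p = 0.00191), Agr2, a disulfide isomerase of mucus-making cells, differed by 2.08 (SE 0.71, adjusted p = 0.11), and Tff3, named after its value was seen, by -0.64 (SE 0.60, adjusted p = 0.565). Of the 7 markers on the array 5 were called higher, but 3 of these 5 were well above background on 1 or 2 of the 3 NP whole arrays and entered the test through the D21 rats. Over the list the mean level was -1.15 ± 1.35 in NP and 2.77 ± 0.21 in D21 rats (SD, n = 3), its summed level lying between 2.23 and 4.45 in NP and between 6.8 and 7.24 in D21 rats. NP rat 9, the NP whole rat with the highest Creb3l4, also had the highest mean of the list (0.4). In depleted cervix the mean of the list was -1.34 ± 0.46 in NP and 1.78 ± 0.28 in D21 rats, with 3 of 7 genes called higher in D21 rats, while Creb3l4 differed by 0.32. NP depleted rat 6 had a Creb3l4 level of 2.41, within the range of the D21 whole rats, at a list mean of -0.92. The list means of NP whole and NP depleted cervix were close to each other, while the mean of Creb3l4 was -0.23 in the first and 1.39 in the second. Of the general epithelial markers 6 of 8 were called higher in D21 whole cervix and none in depleted cervix. The part of the epithelium in the Creb3l4 difference was not tested.

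Creb3l1 is the family member known for control of collagen secretion in fibroblasts and bone. Its level was 3.07, 2.01 and 2.86 in NP whole rats and 3.87, 2.88 and 2.87 in D21 whole rats, which overlapped. The difference of 0.56 (SE 0.67, 95% interval -0.91 to 2.02) did not pass (adjusted p = 0.661). In depleted cervix it was -0.54, 1.36 and 2.24 in NP rats 5, 6 and 7 and 3.63, 4.17 and 2.35 in D21 rats 1, 2 and 4. NP rat 7 and D21 rat 4, which shared a slide, were close to each other while the other 4 rats were far apart. The difference of 2.36 (SE 0.67, 5.14-fold) missed the threshold (adjusted p = 0.0723). Within the slide of NP rats 5 and 6 and D21 rat 2 it was 3.76, within the slide of NP rat 7 and D21 rat 4 it was 0.11, and without these last 2 arrays it was 3.49 with adjusted p = 0.00676. Fibroblast markers had the same direction between the depleted groups, though not rat by rat: their mean was 0.3 ± 0.39 in NP and 3.33 ± 0.38 in D21 rats (SD, n = 3), against 4.65 ± 0.08 and 4.53 ± 0.21 in whole cervix. Of these markers 7 of 8 were called higher in D21 than NP depleted cervix, with summed levels of 4.11 to 5.89 and 8.31 to 8.88, and none was called in whole cervix. In NP rat 7 and D21 rat 4, whose Creb3l1 levels were close, the list means were 0.47 and 3.57. Their part in the Creb3l1 difference was not tested.

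Xbp1 encodes the factor that IRE1 activates by splicing, and the probe does not tell the spliced from the unspliced form as far as the files say. Its level was 2.36, 2.28 and 2.13 in NP whole rats and 2.27, 1.93 and 2.33 in D21 whole rats. The groups overlapped, and the difference of -0.07 (SE 0.36, adjusted p = 0.926) had a 95% interval from -0.86 to 0.71. In depleted cervix it was 0.57, 0.68 and 1.77 in NP rats 5, 6 and 7 and 2.61, 2.36 and 1.51 in D21 rats 1, 2 and 4. As for Creb3l1, the rats of the shared slide were close to each other and the rest apart. The difference of 1.15 (SE 0.36, adjusted p = 0.0985) was 1.74 within the slide of NP rats 5 and 6 and D21 rat 2, -0.26 within that of NP rat 7 and D21 rat 4, and 1.86 without these 2 arrays (adjusted p = 0.00182). The interaction was -1.23 (SE 0.51, adjusted p = 0.223), and -1.94 without the 2 arrays (adjusted p = 0.00641).

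Atf4, the factor that PERK favours and that drives genes of amino acid supply, had a probe printed on 10 spots of each array. Its level was 3.07, 2.55 and 2.91 in NP whole rats and 3.44, 3.42 and 3.5 in D21 whole rats. All D21 rats lay above all NP rats, yet the difference of 0.61 (SE 0.23, 1.53-fold) did not pass (adjusted p = 0.142), and within the slide of both groups it was 0.54. In depleted cervix the levels were 4.01, 4.06 and 3.74 in NP and 4.13, 4.12 and 3.63 in D21 rats, with a difference of 0.02 (SE 0.23, 95% interval -0.47 to 0.52). The lowest rat of each depleted group was on the shared slide, and all 6 depleted rats lay above all 6 whole rats. The share of all genes with this order over both states was not counted. Whole and depleted groups did not overlap in 47.1% of all genes in NP and 44.5% in D21 rats.

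Ddit3 (CHOP), the ATF4 target linked to cell death under lasting stress, had levels of 1.07, 1.62 and 0.83 in NP whole rats and 0.92, 0.35 and 0.11 in D21 whole rats. D21 rat 5 lay within the NP range and the other two below it. The difference of -0.72 (SE 0.35, 95% interval -1.49 to 0.06) did not pass (adjusted p = 0.257). In depleted cervix the levels were 1.04, 2.06 and 1.26 in NP and 1.99, 1.48 and 1.15 in D21 rats, overlapping, with a difference of 0.09 (SE 0.35, adjusted p = 0.908). Of these transcription factors, the D21 whole mean was thus above the NP whole mean in Creb3l4, Creb3l1 and Atf4 and below it in Xbp1 and Ddit3, with the test passed by Creb3l4 alone.

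Of the chaperones and folding enzymes, none of 4 passed the test between D21 and NP rats in either preparation. Hspa5 encodes BiP, the chief chaperone of the ER and a common readout of the response. Its level was 5.56, 4.50 and 5.14 in NP whole, 5.13, 4.35 and 4.67 in D21 whole, 4.65, 4.6 and 4.88 in NP depleted and 4.96, 5.11 and 4.68 in D21 depleted rats. All 4 groups overlapped, and the 12 rats spanned 1.21 on the log2 scale, the narrowest span of the 10 genes. The D21 difference was -0.35 in whole cervix (SE 0.30, 95% interval -1.01 to 0.31, adjusted p = 0.522) and 0.20 in depleted cervix (SE 0.30, 95% interval -0.45 to 0.86, adjusted p = 0.722). A D21 change in Hspa5 was thus not detectable with these rats, within intervals that allow a fall of 1.01 in whole or a rise of 0.86 in depleted cervix.

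Dnajb9 (ERdj4) is a co-chaperone of Hspa5 that helps to present clients for degradation and holds IRE1 in check. Its level was 0.62, 0.35 and 0.20 in NP whole rats and 0.55, 0.23 and 0.42 in D21 whole rats, a difference of 0.01 (SE 0.24, 95% interval -0.53 to 0.54). In depleted cervix it was -1.26, -0.69 and -0.72 in NP and -0.02, -0.55 and -0.37 in D21 rats. The depleted groups did not overlap, but the difference of 0.57 (SE 0.24) did not pass (adjusted p = 0.202), with 0.42 and 0.34 within the 2 slides that held both groups.

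Pdia4, a disulfide isomerase of the ER, had levels of 2.11, 1.44 and 1.80 in NP whole rats and 1.25, 0.57 and 1.01 in D21 whole rats. Every D21 rat lay below every NP rat, the opposite order to Creb3l4, and the difference of -0.84 (SE 0.34, 1.79-fold) did not pass (adjusted p = 0.175). In depleted cervix it was 0.65, -0.08 and 0.92 in NP and 0.04, -0.11 and 0.79 in D21 rats, which overlapped (difference -0.26, SE 0.34, adjusted p = 0.694). With array weights the whole-cervix difference was -0.92 with adjusted p = 0.0112. By the coordinates of the array files the Pdia4 probe spans 1509 bases of the genome.

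Sdf2l1, which works with ER chaperones of the Hspa5 cycle, had levels on its brighter probe of 2.55, 1.49 and 2.68 in NP whole and 2.22, 1.15 and 1.2 in D21 whole rats, and of 1.93, 1.33 and 1.75 in NP depleted and 1.85, 2.20 and 0.12 in D21 depleted rats. The groups overlapped in every comparison, and D21 depleted rat 4 was the lowest of all 12. The D21 difference was -0.72 (SE 0.53, adjusted p = 0.45) in whole and -0.28 (SE 0.53, adjusted p = 0.792) in depleted cervix. The other probe gave -0.65 (SE 0.51) and -0.23 (SE 0.51), so that both probes of this gene had the same direction.

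Herpud1, a membrane protein that gathers the machinery for degradation of misfolded ER proteins, was the gene of this degradation branch. Its level was 0.88, 0.87 and 0.71 in NP whole and 1.22, 1.26 and 1.25 in D21 whole rats, then 0.27, 0.88 and 0.93 in NP depleted and 2.57, 1.26 and 1.39 in D21 depleted rats. All 6 D21 rats lay above all 6 NP rats, from 1.22 to 2.57 against 0.27 to 0.93, which held for Herpud1 alone of the 10 genes. How many of all genes were so separated was not counted. Within 1 preparation, D21 and NP groups that did not overlap were found in 44.3% of all genes in whole and 17.1% in depleted cervix. The differences were 0.42 in whole cervix (SE 0.33, adjusted p = 0.475), 1.05 in depleted cervix (SE 0.33, adjusted p = 0.103) and 0.73 over the mean of both (SE 0.23, 1.66-fold, adjusted p = 0.0778), and none passed the test. The spread that limma uses is shared by the 4 groups, whose SD ran from 0.02 in D21 whole to 0.72 in D21 depleted rats. Within slides the difference was 0.53 for whole cervix, and 0.68 and 0.47 for depleted cervix. Without the depleted arrays of the shared slide the difference in depleted cervix was 1.34 with adjusted p = 0.0403, and that over both preparations was 0.88 with adjusted p = 0.0444.

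In depleted cervix none of the 10 genes was called between D21 and NP rats by limma, while 4 had an unadjusted p under 0.05 (Xbp1, Creb3l1, Dnajb9 and Herpud1, all higher in D21) against 21.7% of all genes. Of 13413 genes tested, 3.62% were called higher and 0.977% lower. The median difference of the 10 genes was 0.26, with 8 of 10 above 0, and that of all genes was 0.02. In 3 genes (Creb3l1, Dnajb9 and Herpud1) all D21 rats lay above all NP rats, and groups that did not overlap were found in 17.1% of all genes. Shares of all genes were not counted for the 2 settings that follow, in which more of the other pathway genes were called too. At the threshold of the study's Methods, an unadjusted p under 0.01 with at least 2-fold, limma called 3 of the 10 higher. Without NP rat 7 and D21 rat 4 it called 3 by the adjusted p (Xbp1, Creb3l1 and Herpud1). The other 7 genes remained uncalled without these 2 arrays, at -0.56 for Creb3l4, 0.41 for Hspa5, 0.69 for Dnajb9, -0.32 for Pdia4, 0.18 for Ddit3, 0.09 for Atf4 and 0.4 for Sdf2l1, with adjusted p from 0.119 (Dnajb9) to 0.802 (Atf4), and the sign of Creb3l4 and of Sdf2l1 was then opposite to that with all arrays. Over the mean of both preparations, with all arrays, none was called. An unadjusted p under 0.05 was found in 4 of the 10 genes and in 24.8% of all genes. The median difference of the 10 genes was 0.3 and that of all genes -0.05. In that fit with all arrays 5.7% of 14572 genes were called higher and 2.57% lower. Xbp1, Creb3l1 and Herpud1 were called higher without the 2 arrays (0.89, 2.02 and 0.88, adjusted p = 0.00681, 0.0124 and 0.0444). The share of all genes called over both preparations without these arrays was not counted either. None of the 10 passed the interaction test by limma, while 0.439% and 1.96% of all genes were called higher and lower. An unadjusted p under 0.05 was found in 2 of the 10 (Xbp1 and Creb3l4, in opposite directions) and in 18.7% of all genes. Without NP rat 7 and D21 rat 4, 3 passed it: Xbp1 (-1.94, adjusted p = 0.00641), Creb3l1 (-2.93, adjusted p = 0.0392) and Creb3l4 (3.42, adjusted p = 0.0288). The share of all genes that passed the interaction test without these rats was not counted. The plot of differences sets the 4 comparisons side by side. The comparisons share arrays: each whole or depleted group enters a pregnancy and a depletion comparison.

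**Figure D2:**
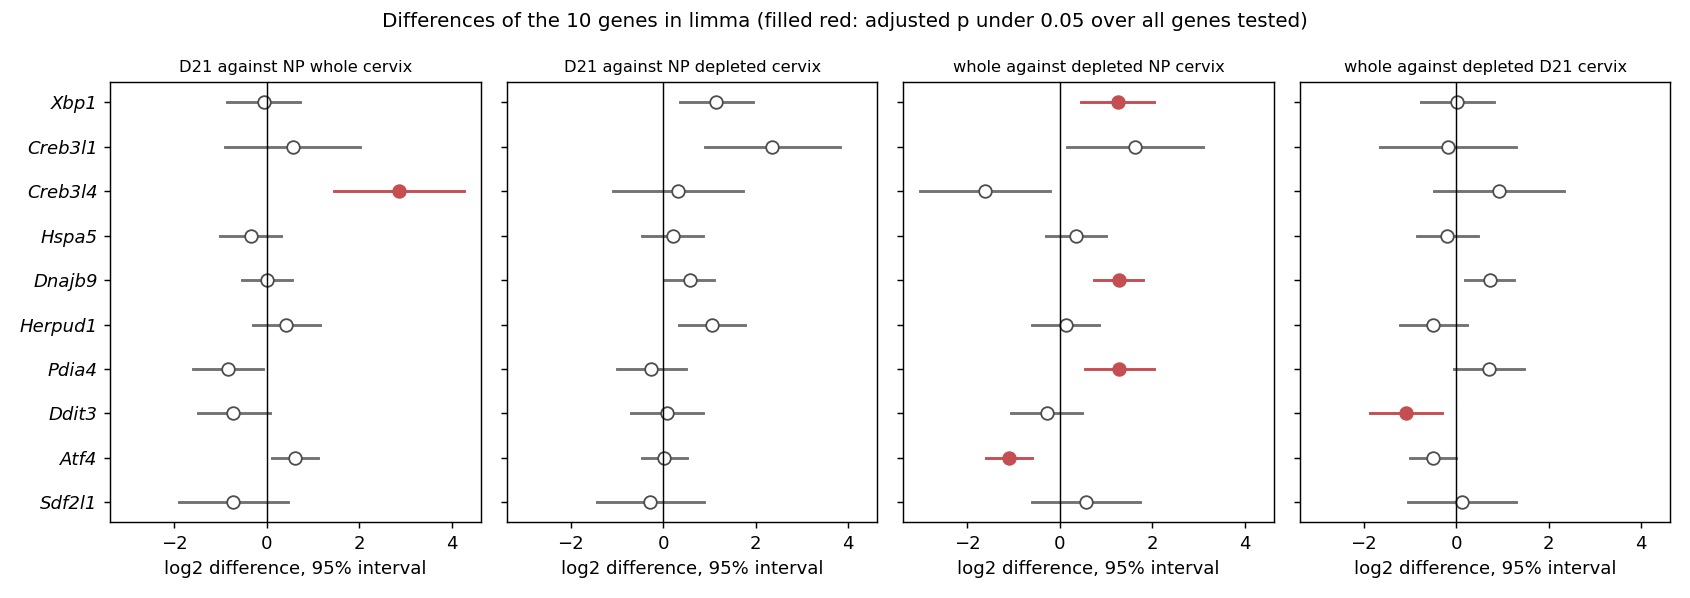
Differences of the 10 genes in limma with 95% intervals (log2, horizontal axis) in 4 comparisons, filled in red where the adjusted p was under 0.05. Creb3l4 was called between D21 and NP whole cervix, and Xbp1, Dnajb9, Pdia4 and Atf4 were called between whole and depleted NP cervix, Atf4 with the lower level in whole cervix.

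In NP rats 4 of the 10 genes were called between preparations, and in D21 rats 1 was. Between D21 and NP rats the counts were 1 in whole and 0 in depleted cervix. Over all genes, too, calls between preparations were the more frequent. In NP rats, Dnajb9 was higher in whole than depleted cervix by 1.28 (SE 0.24, 2.43-fold, adjusted p = 0.00214), Pdia4 by 1.29 (SE 0.34, 2.44-fold, adjusted p = 0.0139) and Xbp1 by 1.25 (SE 0.36, 2.37-fold, adjusted p = 0.0202). Atf4 was lower by -1.09 (SE 0.23, 2.13-fold, adjusted p = 0.00371). In each of these 4 genes the groups did not overlap, as in 47.1% of all genes, and 17.0% of 13419 genes were called higher and 15.8% lower. The median of the 10 genes was 0.46 and that of all genes -0.04. Within the slide that held NP rats 8 and 9 whole and NP rat 7 depleted, Dnajb9 differed by 1.2, Pdia4 by 0.85, Xbp1 by 0.55 and Atf4 by -0.93. The Xbp1 and Pdia4 calls were lost without NP depleted rat 6 or NP whole rat 8 (lowest differences 1.09 and 1.0 in these cases), and Xbp1 also without NP depleted rat 5 (1.03), while Dnajb9 and Atf4 stayed called with any rat left out. With slide as a block Dnajb9 alone stayed called among the 4. Without the depleted arrays of the shared slide the 4 stayed called, at 1.37 for Dnajb9, 1.5 for Pdia4, 1.63 for Xbp1 and -1.19 for Atf4, and Creb3l1 (2.24, adjusted p = 0.0153) and Creb3l4 (-2.25, adjusted p = 0.0191) were called too. In that fit preparation could not be told apart from slide and scan day.

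In D21 rats, Ddit3 was lower in whole than depleted cervix by -1.08 (SE 0.35, 2.12-fold, adjusted p = 0.0485), and no gene was called higher, where 11.9% of 14262 genes were called higher and 10.5% lower. The Ddit3 call stood close to the threshold and was lost when any of 9 of the 12 rats was left out, D21 whole rats and D21 depleted rats 1 and 2 among them, and with slide as a block the difference was -0.19. No slide held both D21 preparations. On the day that held the 3 whole arrays and D21 depleted rat 4 the difference was -0.69. Dnajb9 (0.72, SE 0.24, adjusted p = 0.0558), Pdia4 (0.70, SE 0.34, adjusted p = 0.152) and Atf4 (-0.50, SE 0.23, adjusted p = 0.128) had the direction they had in NP rats but did not pass. Without the depleted arrays of the shared slide Ddit3 differed by -1.28 (adjusted p = 0.0272), and Pdia4 (0.98, adjusted p = 0.0326) and Atf4 (-0.67, adjusted p = 0.0276) passed. Preparation could not be told apart from slide and scan day in that fit either. In 5 of the 10 genes the groups did not overlap (Creb3l4 and Dnajb9 above, Herpud1, Ddit3 and Atf4 below), against 44.5% of all genes, and the median of the 10 was -0.08 beside -0.06 over all genes.

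Marker lists also differed between whole and depleted cervix. Immediate-early genes are known to be induced by dissociation of tissue, a step that both preparations went through. Their mean levels were -0.96 ± 0.06 in NP whole and -0.46 ± 0.07 in D21 whole cervix (SD, n = 3) against 1.31 ± 0.23 and 2.18 ± 0.21 in depleted cervix. Of 9 tested, 8 were lower in whole cervix in both NP and D21 rats, Jun by -2.19 and -2.46 and Ier2 by -1.77 and -2.48. Cytosolic heat shock genes had means of 2.24 ± 0.21 and 1.99 ± 0.22 in NP and D21 whole cervix and of 3.53 ± 0.08 and 4.11 ± 0.26 after depletion, with 4 of 5 lower in whole cervix of D21 rats and 2 of 5 in NP rats. Smooth muscle markers were at 5.22 ± 0.26 in whole and 0.34 ± 0.33 in depleted cervix of NP rats and at 4.42 ± 0.19 and 1.88 ± 0.6 in D21 rats, with 8 of 8 and 6 of 8 called higher in whole cervix, and fibroblast markers were called higher there in 8 of 8 and 3 of 8. The calls of Atf4 in NP rats and of Ddit3 in D21 rats thus had the direction of the immediate-early and heat shock lists. Those of Dnajb9, Pdia4 and Xbp1 in NP rats had the direction of the Mφ, muscle and fibroblast lists. With all arrays, none of these genes was called in both NP and D21 rats. Dnajb9, Pdia4 and Atf4 had the same direction in D21 rats. Xbp1 differed there by 0.02 (limma, adjusted p = 0.976), and Ddit3 differed by -0.28 in NP rats (adjusted p = 0.575). Epithelial markers also had the direction of the Atf4 call, with means of 3.39 ± 0.16 in NP whole and 4.58 ± 0.28 in NP depleted cervix, and 5 of 8 called lower in whole cervix, Krt5 by -2.9 (SE 0.30, adjusted p = 3.6e-05). In D21 rats their means were 4.79 ± 0.24 and 5.07 ± 0.12, with 2 of 8 called lower and 1 higher in whole cervix. The part of these lists in the results was not tested. The 8 housekeeping genes had means between 4.61 and 4.87 in the 4 groups and none was called in any comparison. Of 6 plasma cell markers, a cell type with a high output of antibody, Sdc1 and Derl3 were well above background on all 12 arrays, 2 were so on no array, and neither was called between D21 and NP rats. Derl3 is also in the degradation list below. The B cell markers had 1 gene that could be tested in whole cervix, which was not called, and of the endothelial markers none of 6 was called between D21 and NP whole cervix.

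**Figure D3:**
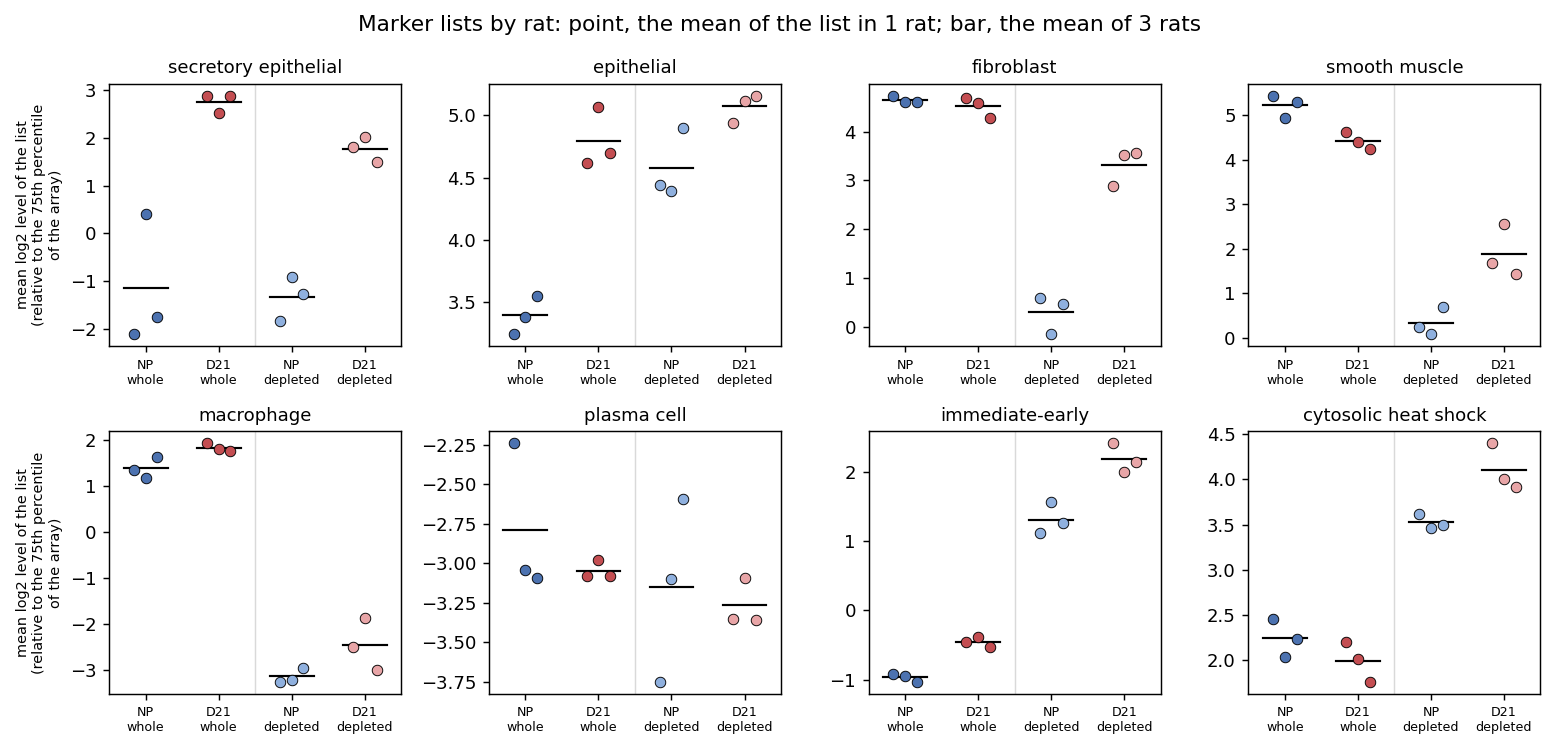
Mean level of 8 marker lists in each rat (log2 over the array's 75th percentile, vertical axis, which differs between panels) by group, with bars for the mean of 3 rats. The secretory epithelial list was higher in D21 than NP rats in both preparations, the fibroblast list was lowest in NP depleted cervix (0.3), and the immediate-early and heat shock lists were higher in depleted than whole cervix.

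The other genes of the pathway were followed as 7 lists of 98 genes, 93 of them on the array and none among the 10. In D21 against NP whole cervix 86 could be tested, 2 were called higher and 1 lower (2.33% and 1.16%, beside 3.93% and 1.93% of all genes), and their median was 0.1 beside -0.08 over all genes. Edem2, a mannosidase-like factor of ER degradation, was higher by 1.07 (SE 0.22, adjusted p = 0.0215). Its levels were -0.02, 0.20 and 0.35 in NP and 1.12, 1.08 and 1.55 in D21 rats. In depleted cervix its D21 difference was 0.06 (SE 0.22, adjusted p = 0.9). Asns, asparagine synthetase and a target of ATF4, was higher by 1.30 (SE 0.23, adjusted p = 0.0112), with levels of 0.40, 0.52 and 0.04 against 1.66, 1.39 and 1.80. Sec16b, a scaffold of ER exit sites, was lower by -1.38 (SE 0.25, adjusted p = 0.0131), with levels of -1.07, -1.37 and -0.91 against -2.25, -2.80 and -2.45. For each of these 3 genes all D21 whole rats thus lay to 1 side of all NP whole rats. The 2 higher and 1 lower became 0 and 0 without NP rat 8, 0 and 0 without D21 rat 7, 1 and 0 without D21 rat 6, 2 and 0 without NP rat 10, and 1 and 1 without D21 rat 5.

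By list, the medians in whole cervix were 0.48 for 9 sensors and transcription factors, -0.26 for 15 chaperones and co-chaperones, 0.11 for 10 genes of disulfide formation, 0.23 for 13 of degradation, -0.2 for 13 of translocation into the ER, 0.12 for 14 of transport from ER to Golgi and 0.18 for 12 ATF4 targets. No chaperone and no gene of translocation was called in either direction. Of the 9 sensors and factors, 8 had a difference above 0 and none was called. In depleted cervix 1 of 86 was called, Sec16b with 1.05 (SE 0.25, adjusted p = 0.0391), opposite in direction to whole cervix, a count that became 0 without any 1 of 9 rats (all but D21 depleted rat 4, NP depleted rat 7 and NP whole rat 9), and over the mean of both preparations 3 of 87 were called higher and none lower.

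Those 3 were Asns (0.67, SE 0.16, adjusted p = 0.0314) and the sensors Ern2 and Atf6, which are named here after their values were seen. Ern2 encodes the IRE1 of mucous epithelia, and its level was -4.92, -1.94 and -4.05 in NP whole rats 8, 9 and 10, -0.26, -0.78 and -0.36 in D21 whole rats, -1.72, -1.04 and -4.07 in NP depleted and 1.55, 1.91 and -0.79 in D21 depleted rats. It was not well above background in NP whole rat 8 and NP depleted rat 7. The D21 rats all exceeded the NP rats, by 3.17 over the mean of both preparations (SE 0.66, adjusted p = 0.0161). With 2 of 3 NP arrays well above background in each preparation, Ern2 was tested through the D21 rats where it was high, and the size of its difference rests in part on NP values that were not well above background. Atf6, the ER membrane sensor related to Creb3l1 and Creb3l4, was higher by 1.04 (SE 0.23, adjusted p = 0.0222), with levels between -0.72 and -0.54 in NP whole and between 0.23 and 0.74 in D21 whole rats. In neither preparation alone was Ern2 or Atf6 called, with whole-cervix values of 3.17 (adjusted p = 0.0719) and 1.18 (adjusted p = 0.0597). In depleted cervix limma gave 3.17 for Ern2 (adjusted p = 0.0832), 0.89 for Atf6 (adjusted p = 0.146) and 0.04 for Asns (adjusted p = 0.938). The depleted D21 and NP groups overlapped for Atf6 and Asns.

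**Figure D4:**
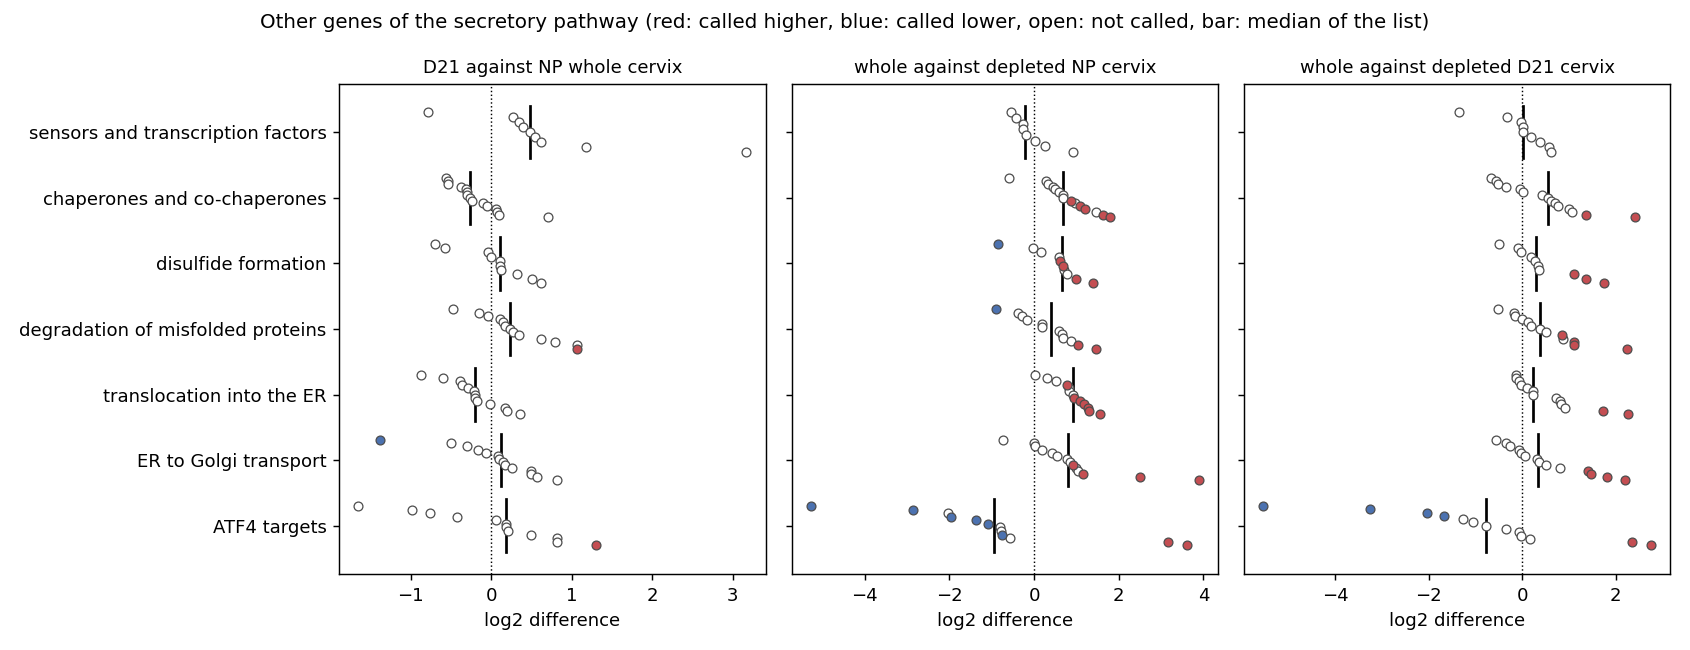
Differences of the other pathway genes (log2, horizontal axis, which differs between panels) by list in 3 comparisons, 1 point for each gene, red and blue where called higher and lower, with a bar for the median of the list. In D21 against NP whole cervix 3 genes were called, and between whole and depleted cervix no sensor or transcription factor was called, while the calls of the other lists but the ATF4 targets were mostly to the higher side.

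Between whole and depleted cervix, 24 of 84 pathway genes were higher and 8 lower in NP rats, and 17 of 87 higher and 4 lower in D21 rats. These are 28.6% and 9.52% in NP rats beside 17.0% and 15.8% of all genes, and 19.5% and 4.6% in D21 rats beside 11.9% and 10.5% of all genes. Genes of translocation into the ER were called higher in 7 of 13 in NP rats (median 0.91), such as Ssr3 of the translocon (1.55, SE 0.43, adjusted p = 0.0173) and Sec62 (1.3, SE 0.40, adjusted p = 0.0282), and in 2 of 13 in D21 rats, Sec61a1 (2.27) and Sec62 (1.73). Chaperones were called higher in 5 of 15 in NP rats, Hspa13 by 1.8 and Fkbp11 by 1.64 the most, and in 2 of 15 in D21 rats, Canx by 2.41 and Dnajc3 by 1.36. Of the disulfide genes, Pdia6 (1.4) and Pdia3 (0.99) were higher and Txndc11 (-0.84) was lower in NP rats, and Tmx1 (1.76) and Pdia3 (1.36) were higher in D21 rats. Of the degradation genes, Selenos (1.46) and Erlec1 (1.03) were higher and Edem2 (-0.89) lower in NP rats, while Derl2 (2.25) and Sel1l (1.12) were among 4 called higher in D21 rats. Derl2 was well above background on 1 of 3 depleted D21 arrays, which limits its value.

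Transport genes included Kdelr3, which returns chaperones from the Golgi, with 3.89 (SE 0.41, adjusted p = 4.5e-05) in NP and 2.2 (SE 0.41, adjusted p = 0.00537) in D21 rats, Kdelr2 with 1.81 in D21 rats and Sec16b with 2.5 in NP rats. Of the ATF4 targets, Atf3 was lower in whole cervix by -5.27 (SE 0.47, adjusted p = 1.5e-05) in NP and -5.54 (SE 0.47, adjusted p = 5.6e-05) in D21 rats, and Ppp1r15a (GADD34), which restores translation, by -2.85 and -3.25. Atf3 is also in the immediate-early list. Nupr1 (3.17 and 2.35) and Vldlr (3.62 and 2.76) were higher in whole cervix. Of 12 and 13 ATF4 targets tested, 6 were lower in NP and 4 in D21 rats, the direction of Atf4 itself, which was called in NP rats.

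Genes with the most similar pattern over the 12 arrays were sought for Xbp1, Hspa5 and Ddit3 among 10938 others well above background on all arrays, by the mean absolute difference of log2 values after each gene's own mean was removed. For Xbp1 they were TC581820 (0.168), Ccnd3 (0.178) and Rbmx2 (0.196), for Hspa5 they were Ppp1cc (0.147), Zfr (0.159) and Ssr1 (0.169), and for Ddit3 they were Arhgef3 (0.181), DV717151 (0.202) and Slc22a17 (0.209), where TC581820 and DV717151 are names of the array for transcripts that were not matched. Among the 10 genes themselves the closest pair was Hspa5 and Sdf2l1 (0.321), followed by Xbp1 and Dnajb9 (0.337), and the farthest was Creb3l1 and Creb3l4 (1.511). This measure grows with how much a gene varies: the distance of a gene from a flat pattern was 0.512 for Xbp1, 0.276 for Hspa5 and 0.439 for Ddit3, so that Hspa5 was closer to a flat pattern than to Sdf2l1. These likenesses are descriptions over 12 arrays that share groups and slides.

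The probes lay in the rn4 build at chr14:86156913-86156972 for Xbp1, chr3:76361172-76361230 for Creb3l1, chr2:182481737-182481796 for Creb3l4, chr3:13787739-13787798 for Hspa5, chr6:63583604-63583663 for Dnajb9, chr19:11036709-11036768 for Herpud1, chr4:75929978-75931486 for Pdia4, chr7:67252505-67252564 for Ddit3 and chr7:118538840-118538899 for Atf4. The pair for Sdf2l1 lay at chr11:85880276-85880335 and chr11:85879929-85879988. These are the positions the array files give, and which exon or UTR each falls in was not analysed here.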

How the data were processed

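Labeled cRNA, made by linear amplification from the total RNA of each rat, was hybridised to Agilent rat 4x44K v3 arrays. The authors deposited the scanner intensity of each spot from Feature Extraction 9.5.3.1, with background subtracted and no normalization between arrays, beside the background rating, saturation and outlier flags of the software (marked as other). A series table deposited beside them holds ratio values, each intensity over its array's 75th percentile, and served as an alternative.

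From the intensities, control and outlier spots were dropped (294 to 648 outlier spots an array), spots of 1 probe averaged, and the log2 75th percentile subtracted. Of 30367 probes 17328 (57.1%) were named through RefSeq accessions and the rest as in the files. The brightest probe stood for a gene, and it was tested where all 3 arrays of either group compared rated it well above background. The lmFit and eBayes functions of limma 3.58.1, run in R 4.3.3, were fitted to all 12 arrays with a mean for each group and no covariates, calls being Benjamini-Hochberg adjusted p under 0.05 over all genes tested. The function was tested on simulated data. The study's Methods name Welch's test at p under 0.01 with 2-fold, run here as the methods' t-test. Samples were grouped by their GEO titles. The number of arrays limits the precision.

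The 10 genes, the lists, the tests and the naming rule were chosen with earlier results of these data known. Named were the 10 genes, the 2 called genes with the largest difference in each direction of each pathway list in D21 against NP whole cervix and in whole against depleted cervix, the 3 nearest patterns of Xbp1, Hspa5 and Ddit3, and the 2 genes with the highest level of each marker list where a value is given. The marker lists were Mφ, plasma cell, B cell, secretory epithelial, epithelial, smooth muscle, fibroblast, endothelial, immediate-early, cytosolic heat shock and housekeeping genes. The alternatives were the methods' t-test, its threshold, other background correction, normalization, filters and probe rules, array weights, slide and day as blocks, and leaving out each rat.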

Additional observations from a re-analysis of the deposited data

Results flagged for a closer look

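The change with depletion differed between D21 and NP rats, by a test of the difference itself in limma, for 4 named genes, all of them outside the 10 ER stress genes. The D21 minus NP difference was lower in whole than in depleted cervix for Sec16b by -2.43 (SE 0.36, adjusted p = 0.00799), for Actg2, an actin of smooth muscle, by -3.89 (SE 0.89, adjusted p = 0.0464), and for the fibroblast collagens Col1a1 by -3.86 (SE 0.62, adjusted p = 0.0114) and Col3a1 by -3.08 (SE 0.58, adjusted p = 0.023). Sec16b was lowest in NP depleted cervix (-3.83, -3.66 and -3.38, the last not well above background), and the direction of its D21 difference was opposite in the 2 preparations.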

How the results depend on the processing

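Over all comparisons and alternatives the differences of the 10 genes were recomputed 1700 times: 1592 kept their direction and side of the threshold or changed direction without being called on either side (53), 49 calls were lost, 59 were gained and none turned. No paired analysis was possible because the groups compared share fewer than 2 rat numbers and hold different animals. The cause of a changed count was not tested. Counts are given as ER stress genes (of 10) and other pathway genes, higher and lower.

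In D21 against NP whole cervix the counts were 1 and 0 of the 10 genes and 2 and 1 pathway genes. They were 0 and 0 with 0 and 0 under the adjusted methods' t-test, normexp, no background filter and slide as a block. The 1 gene higher became 0 under the methods' t-test at its own threshold, with 4 pathway genes higher. Array weights gave 2 and 2 with 14 and 10, the 2 added on the lower side being Pdia4 and Sdf2l1. Other pathway counts were 7 and 3 with only the arrays compared, 4 and 2 with scan day as a block or the Methods' threshold in limma, and 5 and 3 without both depleted arrays of the shared slide. Quantile normalization and the percentile over detected probes each gave 2 lower. Leaving out 1 rat gave 0 to 1 of the 10 genes higher and 0 to 4 and 0 to 2 pathway genes.

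In D21 against NP depleted cervix the counts were 0 and 0 with 1 and 0. Array weights gave 4 genes higher with 10 and 3 pathway genes, and the Methods' threshold in limma gave 3 with 3. Leaving out both arrays of the shared slide gave 3 with 13 and 4. Neither form of the methods' t-test called any of the 10. The 1 pathway gene became 0 under both forms of the methods' t-test, only the arrays compared, the percentile over detected probes, both other filters and slide as a block. Leaving out 1 rat gave 0 to 3 of the 10 higher (2 without NP rat 7, 3 without D21 rat 4), with 0 to 10 and 0 to 2 pathway genes (10 and 2 without D21 rat 4). Over the mean of both preparations the counts were 0 and 0 with 3 and 0. Array weights gave 4 and 1 with 11 and 5, leaving out both arrays 3 and 0 with 8 and 3, and the filter on every array and the Methods' threshold 1 of the 10 higher. No filter and slide as a block gave 1 pathway gene higher, and pathway genes lower were 2 under quantile normalization, 3 with the percentile over detected probes, 1 with scan day and 2 at the Methods' threshold. Leaving out 1 rat gave 0 to 2 with 1 to 7 and 0 to 1.

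In whole against depleted D21 cervix the counts were 0 and 1 with 17 and 4. The Ddit3 call became 0 under both forms of the methods' t-test, only the arrays compared, normexp, quantile normalization, the percentile over detected probes, no filter, slide or scan day as a block, slide as a random block and the Methods' threshold. Quantile normalization and the percentile over detected probes gave 1 higher (Dnajb9), array weights 2 and 3 with 32 and 16, and leaving out both arrays 1 and 2 with 13 pathway genes lower. Pathway counts were 0 and 0 under the adjusted methods' t-test and slide as a block, 6 and 2 with normexp, 10 higher with no filter, 3 and 2 with scan day and 4 and 2 under the methods' t-test at its threshold. Leaving out 1 rat gave 0 to 1 and 0 to 2 with 6 to 19 and 2 to 12.

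In whole against depleted NP cervix the counts were 3 and 1 with 24 and 8. They were 0 and 0 with 6 and 1 under the adjusted methods' t-test, 1 and 0 with 9 and 4 with slide as a block, 1 higher with 12 and 5 with scan day, and 1 higher with 9 and 2 under the methods' t-test at its threshold. The 1 gene lower became 0 with normexp (pathway 12 and 3) and 2 with array weights or without both arrays. Pathway counts were 14 higher with only the arrays compared, 9 and 4 with no filter and 15 and 4 at the Methods' threshold. Leaving out 1 rat gave 1 to 4 and 1 to 2 with 8 to 33 higher. For the interaction, 0 and 0 became 1 and 3 with array weights, 1 and 2 without both arrays, and leaving out 1 rat gave 0 to 1 lower. The percentile over detected probes moved the median difference of all genes by -0.16 in D21 against NP depleted cervix, 0.19 in whole against depleted D21 cervix and 0.14 in the interaction, and no other scaling moved one by over 0.1.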
